A study of Mus musculus with 6 samples.

Results

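The genes described here are the ligands of the angiopoietin and vascular endothelial growth factor (VEGF) families and the receptors through which they act on blood vessels. They were picked by symbol: Angpt1, Angpt2, Vegfa, Vegfb and Vegfc as ligands, Tek, Tie1, Flt1 and Kdr as receptors, and Nrp1 as a co-receptor. All 10 were found, each in 1 row, among 35857 genes, and all 10 averaged 1 TPM or more and so entered the test. TPM is a relative abundance per transcript length with the same total in every library, so levels can also be set side by side between genes.

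The samples were 6 cerebral cortices of C57BL/6 mice at postnatal day 7, each sequenced as its own library of polyadenylated RNA on the Ion Proton. The labels give 3 brains as Qk-/-, here called knockout, and 3 as wild type, here called control. The product of Qk, quaking, binds RNA in glia and neural progenitors and acts on the splicing, stability and translation of its targets. The sources used here do not say which exons were removed, in which cells, or whether littermates were used. In the cortex RNA of the knockout brains Qk stood at 14.6, 15.2 and 15.4 TPM, against 36.5, 43.2 and 41.3 TPM in the control brains, so part of the transcript remained (log2 change −1.36, SE 0.0945, limma adjusted p = 0.000855). Between 18971 and 19710 genes per library were above 0 TPM, and no library stood apart: Pearson correlations across genes were 0.977 to 0.982 for every pair. The reads behind a value are unknown, since TPM keeps no depth. Tbr1, a marker of cortical excitatory neurons, fitted the labelled tissue, at 49.5 to 54.6 TPM in knockout and 50.9 to 54.2 TPM in control libraries.

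Blood vessels enter the cortex from its surface before birth and go on branching and maturing after it. VEGF-A, released by glia, neurons and other cells in step with the demand for oxygen, drives sprouting through the receptor encoded by Kdr, while the product of Flt1 binds VEGF-A tightly and limits it, partly as a soluble decoy. The angiopoietin pathway acts later: angiopoietin-1, secreted by mural and other cells near the vessel, activates the endothelial receptor Tie2, encoded by Tek, and keeps vessels quiet and tight. Angiopoietin-2, stored and released by endothelial cells, mostly opposes it at sites of remodelling, and Tie1 is a partner receptor without a high-affinity ligand of its own.

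Because quaking binds RNA at a short recognition sequence, the 3' untranslated regions of the 10 transcripts were read for it. The letters searched were ACTAAC and ACTAAT, on the transcript strand only, in the longest 3' region of each gene in GENCODE M21 (GRCm38). Of the 10 genes, 4 held a match: Angpt2, Tie1 and Vegfa 1 each, and Flt1 2. No match was in the 2247 bases of Angpt1. The matches are shown because they are the places in these transcripts where quaking's known letters occur. Each line gives 30 bases, 5′ to 3′, with the match in capitals and also, where it lies inside the 30 bases, a shorter TAAC or TAAT at a distance of 1 to 20 bases, the companion element of quaking sites.
Angpt2: ttttTAATatccACTAACaagctgaaagtg
Tie1: agcatgcatgttACTAACaccctgtttagc
Vegfa: accattgaaaccACTAATtctgtccccagg
Flt1, upstream match: cccagaggaaagACTAATcaatggtatcac
Flt1, downstream match: taaaacaagaagACTAATgataagctatga
They lie on the minus strand at chr8:18690948-18690977 (Angpt2), chr4:118471237-118471266 (Tie1), chr17:46017837-46017866 (Vegfa), and chr5:147637561-147637590 and chr5:147635887-147635916 (Flt1). Those of Flt1 belong to a shorter transcript that ends inside the gene. Such letters are common. Of 6190 genes whose 3' region is at least as long as the 1785 bases of Angpt2, 45.5% held a match in a first stretch of that length, and 17.7% held one with the companion element near it, as Angpt2 does. The downstream match of Flt1 also has one, not fully inside the bases shown, as did 34.7% of 1482 genes at its length of 3971 bases. For the length of Angpt1 the share with a match was 53.2% of 4600 genes. A match is not evidence of binding here, and its absence from these windows says nothing about quaking.

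Angpt1, the activating ligand, rose in the cortex of knockout mice. Its level was 13.0, 13.7 and 14.3 TPM in knockout replicates 1, 2 and 3, against 7.24, 8.29 and 7.22 TPM in control replicates 1, 2 and 3. Every knockout library lay above every control library, by more than the spread within either group. The mean was 13.7 ± 0.655 TPM in knockout and 7.58 ± 0.612 TPM in control cortex (SD, n = 3 each), or 180.4% of the control level. On the log2(TPM + 1) scale the change was 0.78 (SE 0.114, 95% confidence interval 0.52 to 1.03, limma adjusted p = 0.0278). Angpt1 (Entrez 11600, chromosome 15, 42424723 to 42676977, minus strand) was the only one of the 10 genes past an adjusted p of 0.05, a threshold passed by 0.387% of the 14994 genes tested (0.1% higher and 0.287% lower in knockout). Its position past the threshold was narrow. It held in 4 of 12 other settings and was lost in 8, with limma adjusted p of 0.0237 to 0.152 over the 12. The call was lost in each of 6 fits with a knockout or control library omitted (0.0859 to 0.152). It was also lost with no filter on low TPM (0.0902) and with the replicate number as a block (0.0916). The log2 change in the 6 fits with a library omitted stayed at 0.74 to 0.83.

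Angpt2 stood the other way. Its level was 1.95, 2.49 and 1.82 TPM in knockout libraries and 3.29, 3.65 and 3.58 TPM in control libraries, again with no overlap. The means were 2.09 ± 0.355 TPM in knockout and 3.51 ± 0.191 TPM in control cortex (SD, n = 3 each), or 59.5% of the control level. The difference did not pass the test across all genes (log2 change −0.55, SE 0.178, 95% interval −0.95 to −0.15, limma adjusted p = 0.385, and 0.176 to 0.666 over 11 other settings). At this low abundance the pseudocount of 1 compresses the difference, which was −0.73 with a pseudocount of 0.1. Angpt2 (Entrez 11601, chromosome 8, 18690263 to 18741562, minus strand) is the member of lowest level in both groups.

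Since both ligands meet the same receptor, their ratio was taken in each library. Angpt1 exceeded Angpt2 by 6.68, 5.50 and 7.87 times in knockout replicates 1, 2 and 3, against 2.20, 2.27 and 2.02 times in control replicates 1, 2 and 3. The lowest knockout ratio was above the highest control ratio. The mean ratio was 6.68 ± 1.19 in knockout and 2.16 ± 0.131 in control cortex (SD, n = 3 each). The log2 difference was 1.61, and an exact two-sided permutation test over the 6 libraries gave p = 0.1, which is the smallest value that 3 against 3 can give. Since Angpt1 and Angpt2 were each already separate, in opposite directions, the separation of their ratio and this p-value were fixed beforehand. The ratio therefore adds no evidence to the values of the 2 genes.

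**Figure D1:**
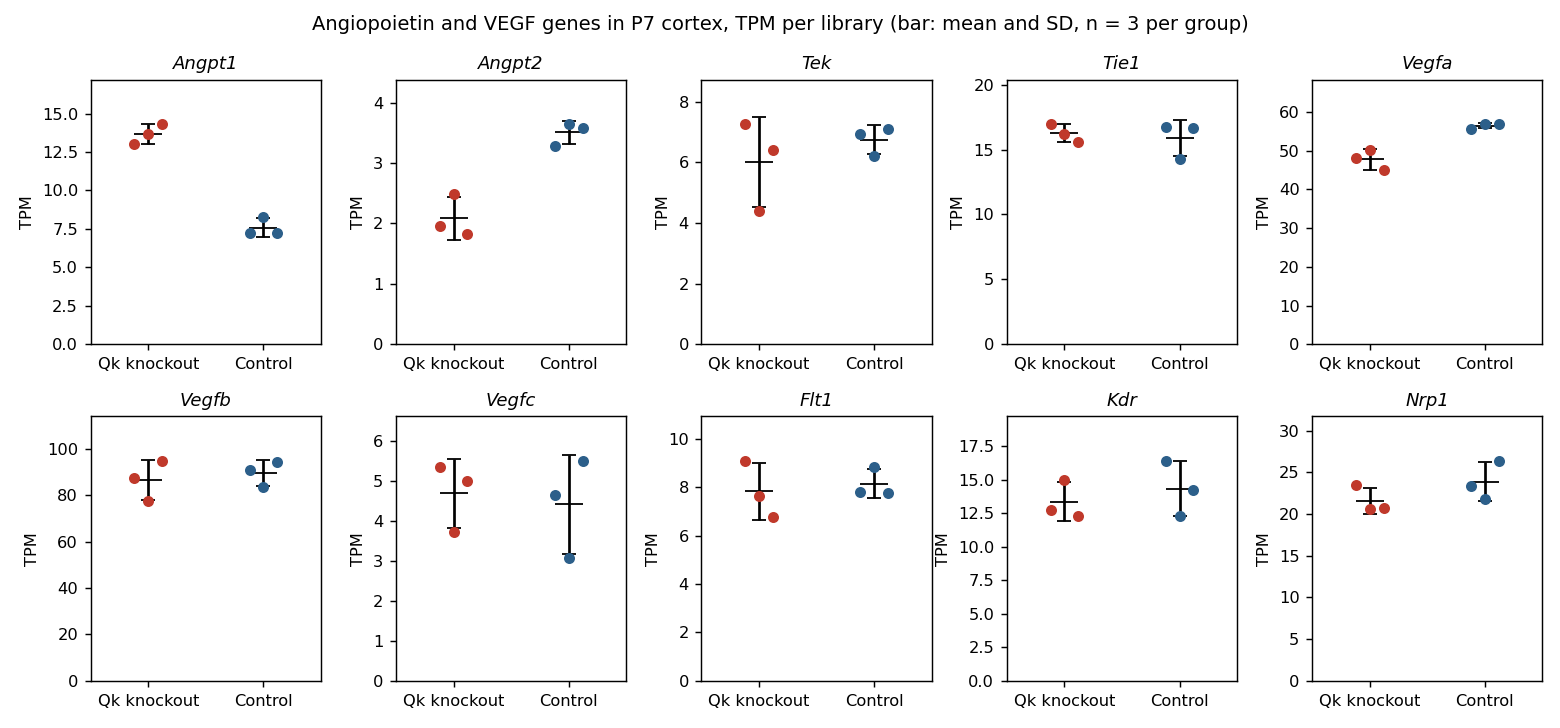
TPM of the 10 genes in each library (y axes from 0, own scale per gene), with knockout points left of control points and bars for the mean and SD (n = 3 per group). Knockout and control points are separate for Angpt1 (13.0 to 14.3 against 7.22 to 8.29 TPM), Angpt2 (1.82 to 2.49 against 3.29 to 3.65 TPM) and Vegfa (44.9 to 50.3 against 55.6 to 56.9 TPM), and they overlap for the other genes.

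The receptors of the angiopoietins overlapped between groups. Tek, the gene for Tie2 (Entrez 21687), was at 7.27, 4.38 and 6.42 TPM in knockout libraries and at 6.92, 6.20 and 7.10 TPM in control libraries. Knockout replicate 2 held the lowest value. Its log2 change was −0.16 (95% interval −0.57 to 0.24, limma adjusted p = 0.861), so a decrease of the size seen for Angpt2 lies within the interval. Tie1, which forms complexes with Tie2, was at 17.0, 16.2 and 15.6 TPM in knockout libraries and 16.7, 14.3 and 16.7 TPM in control libraries. These values overlapped nearly fully, with a log2 change of 0.03 (95% interval −0.20 to 0.27, limma adjusted p = 0.961).

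Among the VEGF ligands, Vegfa was lower in all 3 knockout libraries, by a small margin. It was at 48.1, 50.3 and 44.9 TPM in knockout replicates 1, 2 and 3, against 55.6, 56.9 and 56.9 TPM in control replicates 1, 2 and 3. The groups did not overlap, and the control libraries lay within a narrow range. The mean was 47.7 ± 2.70 TPM in knockout and 56.5 ± 0.744 TPM in control cortex (SD, n = 3 each), or 84.5% of the control level. This did not pass the test across all genes (log2 change −0.24, SE 0.0759, 95% interval −0.41 to −0.07, limma adjusted p = 0.376, and 0.347 to 0.654 over 12 other settings). Vegfa (Entrez 22339) lies on chromosome 17 from 46016993 to 46032369. Qk lies elsewhere on that chromosome, at 10202601 to 10319854, and any part of this position in the values of Vegfa was not tested.

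Vegfb, a ligand of Flt1 that is dispensable for vessel growth in most tissues, was the most abundant of the 10. It was at 87.2, 77.4 and 94.9 TPM in knockout and 90.8, 83.3 and 94.3 TPM in control libraries (log2 change −0.05, 95% interval −0.26 to 0.16, limma adjusted p = 0.926). Vegfc, best known as a ligand of lymphatic vessels, was at 5.36, 3.72 and 5.01 TPM in knockout and 4.66, 3.07 and 5.51 TPM in control libraries. Replicate 2 was the lowest library of each group for both genes, and the groups overlapped. The interval for Vegfc was wide, from −0.39 to 0.57 around 0.09 (limma adjusted p = 0.948).

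The VEGF receptors overlapped between groups. Kdr, the main signalling receptor, was at 12.8, 15.0 and 12.3 TPM in knockout and 16.4, 12.3 and 14.2 TPM in control libraries (log2 change −0.09, 95% interval −0.39 to 0.21, limma adjusted p = 0.900). Flt1, the trap for VEGF-A, was at 9.10, 7.64 and 6.75 TPM in knockout and 7.82, 8.83 and 7.77 TPM in control libraries (−0.06, 95% interval −0.37 to 0.26, limma adjusted p = 0.950). The deposited value is 1 per gene, so the balance of membrane-bound and soluble Flt1 transcripts was not analysed here. Nrp1, which binds VEGF-A and also class 3 semaphorins and is expressed by neurons as well as endothelium, was at 23.4, 20.5 and 20.7 TPM in knockout and 23.3, 21.8 and 26.4 TPM in control libraries (−0.14, 95% interval −0.37 to 0.10, limma adjusted p = 0.772).

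Ratios within the VEGF branch overlapped between groups. Flt1 over Kdr averaged 0.590 ± 0.108 in knockout and 0.579 ± 0.124 in control cortex (SD, n = 3 each, exact permutation p = 0.9). Vegfa over the sum of Flt1 and Kdr was 2.20, 2.22 and 2.35 in knockout and 2.29, 2.69 and 2.58 in control libraries. Knockout replicate 3 lay above control replicate 1, so the groups overlapped (means 2.26 ± 0.0845 and 2.52 ± 0.205, SD, n = 3 each, exact permutation p = 0.2).

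**Figure D2:**
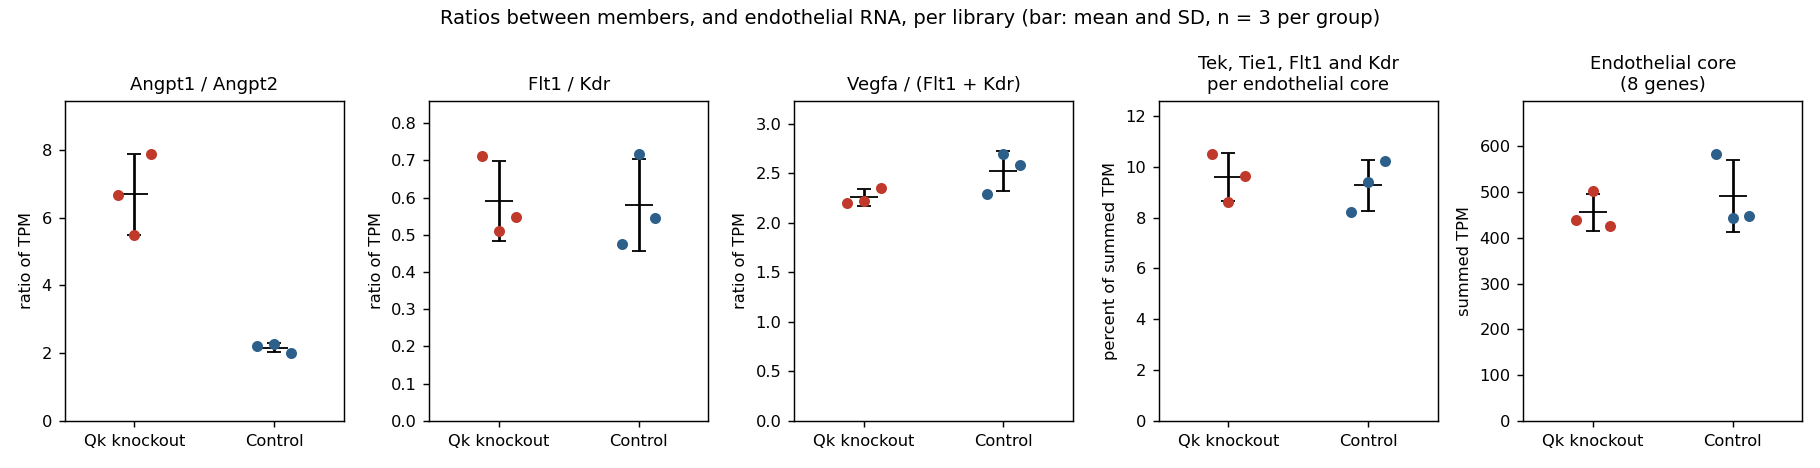
Ratios of TPM between members, the summed TPM of Tek, Tie1, Flt1 and Kdr in percent of that of 8 other endothelial genes, and the summed TPM of those 8 genes. Each point is a library, with knockout left of control and bars for the mean and SD (n = 3 per group). The ratio of Angpt1 to Angpt2 is at 5.50 to 7.87 in knockout and 2.02 to 2.27 in control libraries, and the other panels overlap.

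Ordered by mean TPM, the control cortex ran Vegfb (89.5), Vegfa (56.5), Nrp1 (23.9), Tie1 (15.9), Kdr (14.3), Flt1 (8.14), Angpt1 (7.58), Tek (6.74), Vegfc (4.41) and Angpt2 (3.51 TPM). The control ranges overlapped between neighbours for Tie1 and Kdr, Flt1 and Angpt1, and Vegfc and Angpt2. In knockout cortex Angpt1 (13.7 TPM) stood above Kdr (13.4) and Flt1 (7.83 TPM), and so took rank 5 where it had rank 7 in controls, with a range that overlapped that of Kdr. The knockout ranges of Flt1 and Tek, and of Tek and Vegfc, overlapped as well, and all genes other than Angpt1 kept their order.

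Over the 10 genes, 1 rose, 0 fell and 9 did not pass the test, 3 had an unadjusted p under 0.05 (8.72% of all genes tested did), and the median log2 change was −0.07, against −0.03 over all genes tested. Groups without overlap were found for 3 of the 10 (Angpt1 higher, Angpt2 and Vegfa lower), against 14.2% of all genes tested. Since the members were chosen with earlier results of these data known, these shares describe the list and cannot show that it stands out.

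Further genes of the pathway were taken from a list of 24: other ligands and receptors, cofactors of ligand processing, a phosphatase of Tie2 and messengers inside the cell. Angpt4 and the adaptor Sh2d2a were at 0 TPM in every library. Of the 22 tested, 0 passed an adjusted p of 0.05 by limma, against 0.387% of all genes tested. At an unadjusted p under 0.05 there were 2, against 8.72% of all genes tested. The median log2 change of the 22 was −0.10, with 16 below 0 and 6 above. Akt1, a kinase downstream of both receptor families and the member of highest level, was at 295.5, 364.2 and 308.0 TPM in knockout and 338.2, 337.7 and 337.3 TPM in control libraries (limma adjusted p = 0.874). Grb2, an adaptor of receptor tyrosine kinases, was at 146.3, 158.3 and 143.7 TPM in knockout and 145.5, 159.8 and 165.6 TPM in control libraries (0.863). Both overlapped between groups.

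Of these 22 genes, 8 were lower and 2 higher in knockout with no overlap, against 8.98% and 5.20% of all genes tested in those directions. Chosen after their values were seen, 4 of the 8 are described here: 2 ligands, a receptor and a phosphatase. Pgf, placental growth factor and another ligand of Flt1, was at 7.15, 4.20 and 5.64 TPM in knockout and 10.2, 7.67 and 7.33 TPM in control libraries (log2 change −0.51, limma adjusted p = 0.496). Flt4, the receptor of VEGF-C, averaged 2.36 ± 0.507 TPM in knockout and 3.17 ± 0.210 TPM in control cortex (SD, n = 3 each, limma adjusted p = 0.690). Ptprb, the endothelial phosphatase that restrains Tie2, averaged 4.12 ± 0.235 TPM in knockout and 5.10 ± 0.685 TPM in control cortex (0.711). Vegfd averaged 2.77 ± 0.272 TPM in knockout and 3.62 ± 0.422 TPM in control cortex (0.691). None of these passed the test, and Flt4, Ptprb and Vegfd are of low abundance. The rest of the 8 lower genes were Plxnd1, Pik3r1, Adamts3 and Ccbe1, and the 2 higher were Tnip2 and Sema3a. Plxnd1 (means of 78.0 in knockout and 87.8 TPM in control) and Pik3r1 (42.2 and 47.9 TPM) were more abundant than the 4 described.

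**Figure D3:**
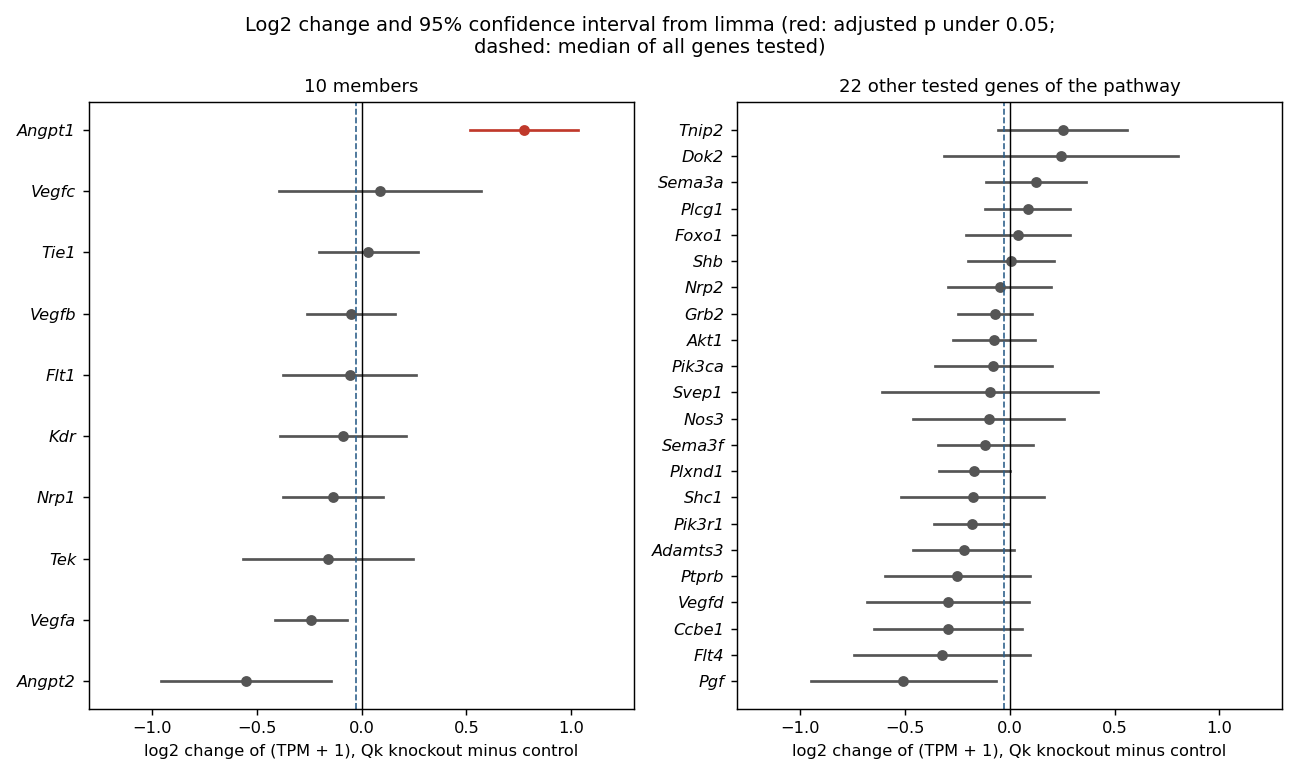
Log2 change of TPM + 1, knockout minus control, with 95% confidence intervals from limma for the 10 members (left) and 22 other tested genes of the pathway (right). Angpt1 (0.78) is the only gene drawn in red for an adjusted p under 0.05, and the dashed line marks the median of all genes tested (−0.03).

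Oxygen sensing, the main regulator of Vegfa, was read through 8 genes of the sensor and 15 genes that hypoxia induces. None passed an adjusted p of 0.05 by limma, against 0.387% of all genes tested. At an unadjusted p under 0.05 there were 2 and 1, against 8.72% of all genes tested, and the median log2 changes were −0.10 and 0.05. Egln1, a prolyl hydroxylase that marks the hypoxia-inducible factors for degradation, was at 75.0 to 91.2 TPM in knockout and 78.1 to 87.0 TPM in control libraries, and its relative Egln2 at 47.9 to 51.8 TPM in knockout and 52.0 to 74.3 TPM in control libraries (limma adjusted p = 0.996 and 0.606). Aldoa and Ldha, glycolytic enzymes among the induced genes, gave limma adjusted p of 0.936 and 0.597. Epas1, which encodes the hypoxia-inducible factor HIF-2α and was chosen after its values were seen, was at 33.6, 30.1 and 36.2 TPM in knockout and 42.7, 39.8 and 47.8 TPM in control libraries, without overlap (log2 change −0.37, limma adjusted p = 0.279). Vhl, chosen likewise, averaged 49.1 TPM in knockout and 56.5 TPM in control cortex (0.505). With Egln2, these made 3 of the 8 sensor genes lower without overlap and 0 higher, against 8.98% and 5.20% of all genes tested. Among the 15 induced genes 1 was lower and 1 higher without overlap. Of 12 genes of sprouting tip cells, 10 were tested and 0 passed, against 0.387% of all genes tested. At an unadjusted p under 0.05 there were 0, against 8.72%. Pdgfb, the endothelial signal that recruits pericytes, was at 59.9 to 68.7 TPM in knockout and 62.0 to 67.5 TPM in control libraries (limma adjusted p = 0.991), and Nid2, a basement membrane protein, gave 0.665.

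Levels in bulk cortex mix the number of cells with their RNA, and fewer cells of a type cannot be told apart from less RNA per cell. The summed TPM of 8 endothelial genes (Pecam1, Cdh5, Cldn5, Esam, Egfl7, Emcn, Icam2 and Clec14a) was 439.2, 501.5 and 426.0 in knockout and 582.5, 443.7 and 447.8 in control libraries, with overlap (exact permutation p = 0.5). Cldn5, the tight junction gene with most of that sum, and Egfl7 did not pass (limma adjusted p = 0.904 and 0.999). Tek, Tie1, Flt1 and Kdr are not part of that sum. Their own summed TPM equalled 9.59 ± 0.946% of it in knockout and 9.28 ± 1.01% in control cortex (SD, n = 3 each, exact permutation p = 0.7). Among 14 other endothelial genes 1 passed and fell, the lipid transporter Mfsd2a, where 0.287% of all genes tested fell. Mfsd2a was at 21.1 ± 0.866 TPM in knockout and 32.9 ± 3.43 TPM in control cortex (SD, n = 3 each, limma adjusted p = 0.0451). Of these 14 genes, 4 were lower and 0 higher without overlap, against 8.98% and 5.20% of all genes tested. The summed TPM of the 14 was 260.5 to 275.3 in knockout and 305.8 to 316.5 in control libraries, lower without overlap.

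Beside the angiopoietins, the summed TPM of marker genes of cells known to make them was as follows. The 14 mural cell genes summed to 251.5 to 291.7 TPM in knockout and 310.9 to 329.2 TPM in control libraries, without overlap. Vtn held much of that sum, with 138.1 of a mean 271.3 TPM in knockout and 172.0 of 320.0 TPM in control cortex. The separation of the sum leans on this gene. Singly, 0 of 14 passed, against 0.387% of all genes tested. Vtn (limma adjusted p = 0.186) and the pericyte gene Rgs5 (0.898) were among the 14. Of the 14, 4 were lower and 0 higher without overlap, against 8.98% and 5.20% of all genes tested. Angpt1 stood higher while the mural sum stood lower, and the part of any cell type in the values of Angpt1 was not tested. Relative to the mural sum, which does not include it, Angpt1 was 4.46, 5.06 and 5.70% in knockout and 2.33, 2.59 and 2.19% in control libraries. This comparison was taken after the values were seen. Relative to the sum of the 8 endothelial genes, which does not include it, Angpt2 was 0.444, 0.496 and 0.427% in knockout and 0.565, 0.823 and 0.799% in control libraries. Both percentages were separate between groups, as the TPM were. Since the Angpt1 and mural values were each already separate, in opposite directions, the separation of their ratio adds no evidence, and neither percentage is given a test.

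Astrocytes are among the cells that release VEGF-A. Of 14 astrocyte genes, 6 fell and 0 rose past the threshold, against 0.287% and 0.1% of all genes tested. The glutamate transporter Slc1a3 was at 112.4 ± 4.86 TPM in knockout and 264.9 ± 11.3 TPM in control cortex, and Mlc1, S100b and Acsbg1 were also among the falls. Not all 14 moved alike, as genes chosen after their values were seen show. Aldh1l1 was higher without overlap (means of 77.0 in knockout and 55.5 TPM in control, limma adjusted p = 0.139). Aqp4 overlapped (46.4 and 49.1 TPM, 0.847). The list summed to 837.1 to 912.5 TPM in knockout and 1245 to 1311 TPM in control libraries, and its part in the values of Vegfa was not tested. In the oligodendrocyte lineage 4 of 11 tested genes fell (Mbp, Gpr17 and Bcas1 among them) and Olig2 rose, against the same 0.287% and 0.1%. The sums were 488.9 to 518.1 TPM in knockout and 547.0 to 580.7 TPM in control libraries. None of 12 neuronal, 12 microglial, 10 meningeal or 7 tested choroid plexus genes passed by limma, against 0.387% of all genes tested. At an unadjusted p under 0.05 there were 1, 4, 3 and 0, against 8.72% of all genes tested, a share that the microglial and meningeal counts exceeded. The neuronal sum overlapped between groups (Tubb3 and Snap25, limma adjusted p = 0.994 and 0.656). The microglial sum was 415.0 to 455.4 TPM in knockout and 379.5 to 405.8 TPM in control libraries (C1qb and C1qc, 0.469 and 0.549). The meningeal sum was 349.4 to 420.6 TPM in knockout and 413.4 to 500.3 TPM in control libraries (Igf2 and Dcn, 0.379 and 0.960). Choroid plexus epithelium is itself a source of VEGF-A. Its sum was 679.0, 1034 and 746.6 TPM in knockout and 1547, 757.6 and 1469 TPM in control libraries, mostly Ttr with some Folr1 (limma adjusted p = 0.590 and 0.629). The groups overlapped, and the part of the choroid plexus in the values of Vegfa was not tested.

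**Figure D4:**
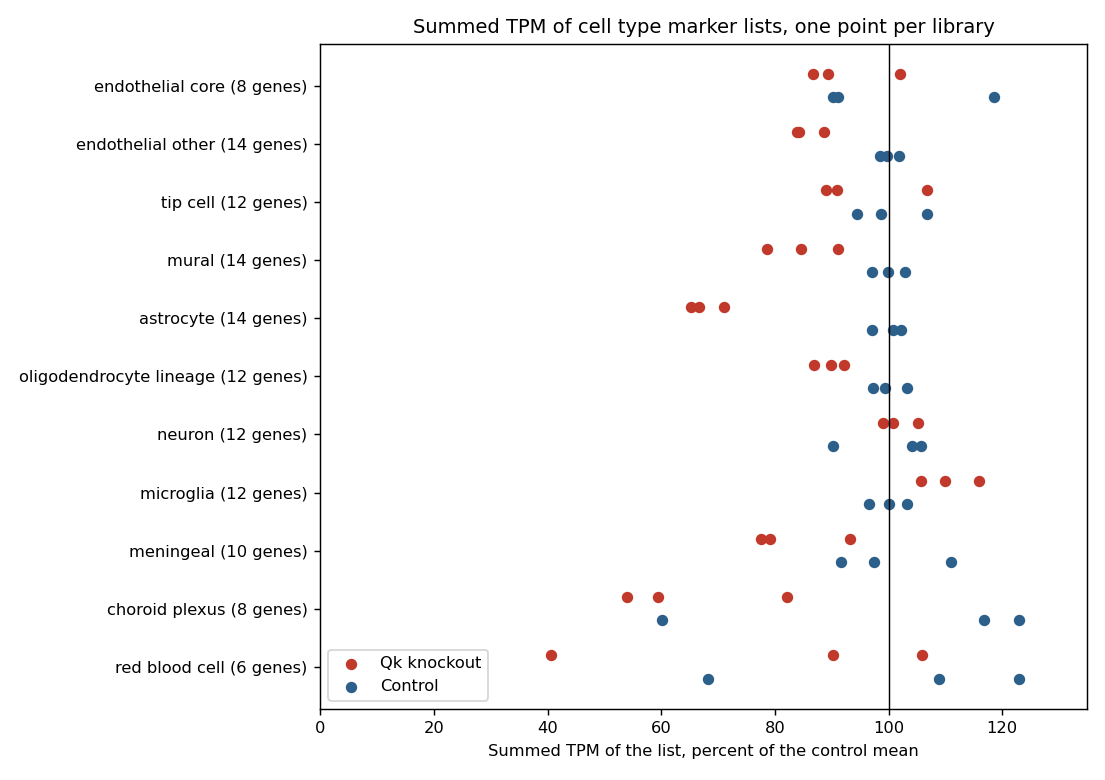
Summed TPM of cell type marker lists in each library, in percent of the control mean of the same list (x axis), with knockout points above control points. Mural sums, with Vtn as their largest part, lie at 251.5 to 291.7 TPM in knockout and 310.9 to 329.2 TPM in control libraries. Astrocyte sums lie at 837.1 to 912.5 TPM in knockout and 1245 to 1311 TPM in control libraries. The sums of the 8 core endothelial genes overlap. Those of the 14 other endothelial genes do not, at 260.5 to 275.3 TPM in knockout and 305.8 to 316.5 TPM in control libraries.

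Over the 6 libraries, the genes whose log2 TPM ran most alike with the sum of Tek, Tie1, Flt1 and Kdr were Etfb (Pearson r = 0.994), Larp1 (0.987), Fam98a (0.983), Bst2 (0.982) and Stoml1 (0.981), out of 11539 genes of at least 5 TPM. With 6 points that share their library totals, 14 genes reached an r of at least 0.97, so these likenesses are descriptions of these libraries.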

How the data were processed

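Expression in 6 mouse cortex libraries (3 knockout, 3 control; groups and numbers from the sample titles) was deposited by the authors as TPM, 1 value per gene under an Entrez number and symbol. The submitters' processing notes name STAR 2.4.1d, RSEM 1.3.0 and the builds mm10 and GRCm38.p4; the sources used here do not give the annotation or read filters. TPM made by the authors keeps no depth, so no counting interval was computed. The test was limma 3.58.1 (R 4.3.3; eBayes with trend, group as the only term) on log2(TPM + 1) of the 14994 genes averaging 1 TPM or more over all 6 libraries, two-sided, with Benjamini-Hochberg adjustment and a threshold of 0.05. Log2 changes are knockout minus control, and the pseudocount understates those of low genes. The fit was tested on simulated data. Ratios were compared by exact permutation over libraries. By the design text each library is from its own brain, so p-values measure the spread between brains. Coordinates and 3' regions are from GENCODE M21 (GRCm38), matched by Entrez number.

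The members and lists were chosen with earlier results of these data known. Named genes were all members, Qk, from each other list up to 4 genes past the threshold or else the 2 of highest TPM, and the 5 most like the receptors; others are said to be chosen after their values were seen. Tbr1, as a check of the tissue, was too. Alternatives were another pseudocount, filter, scaling, variance model, the replicate number as a block, and leaving out each library.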

Additional observations from a re-analysis of the deposited data

How the results depend on the processing

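With 3 libraries a group, the calls were sensitive and the sizes less so. The number of genes past the threshold was 58, and it was 37 with no filter on low TPM, 28 without the trend in eBayes, 38 with the replicate block and 20 to 53 on leaving out 1 library. The number of members past it was 1, and it was 0 with no filter (23207 genes tested), 0 with the replicate block and 0 to 0 on leaving out 1 library. Angpt1 kept a log2 change of 0.78 with no filter (limma adjusted p = 0.0902) and of 0.78 with the replicate block (0.0916), and 0.74 to 0.83 on leaving out 1 library. Whether replicate numbers pair the samples is not stated in the sources used here, and the values do not settle it. Deviations of same-numbered libraries correlated weakly, at 0.013 to 0.035. Each of the 6 libraries nonetheless correlated best with its own number, which is at most a weak hint from the data and not the design. The 6 matches are mutual and so not independent. For knockout replicate 3 the margin was small, at 0.0134 with control replicate 3 and 0.0099 with control replicate 2. Direction turned when a library was left out for Tek (−0.29 to 0.019), Vegfb (−0.12 to 0.025), Flt1 (−0.16 to 0.033), Kdr (−0.19 to 0.0063), Tie1 (−0.037 to 0.068) and Vegfc (−0.10 to 0.24), none of which passed the test in any of these fits. Angpt2 (−0.64 to −0.49), Vegfa (−0.28 to −0.20) and Nrp1 (−0.20 to −0.064) kept theirs. The log2 difference of the Angpt1 to Angpt2 ratio was 1.61, 1.33 with a pseudocount of 1 on each TPM, and 1.49 to 1.75 on leaving out 1 library. Angpt2 and Vegfc were not fitted at a minimum mean of 5 TPM, since they averaged 2.80 and 4.56 TPM over the 6 libraries. The depth behind low genes such as Angpt2 is unknown, and the cause of each lost call was not tested.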

Other observations

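Red blood cell genes were at a low level in replicate 3 of both groups. Hbb-bs, a beta-globin gene, was at 3672, 3312 and 1418 TPM in knockout replicates 1, 2 and 3 and at 3761, 3877 and 2037 TPM in control replicates 1, 2 and 3. Hba-a1, an alpha-globin gene, was at 3521, 2959 and 1299 TPM in knockout and 3540, 4269 and 2358 TPM in control libraries. The 5 red blood cell genes tested did not pass by limma, against 0.387% of all genes tested that did. At an unadjusted p under 0.05 there were 0, against 8.72%.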
